A study of Mus musculus with 4 samples.

Results

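Prm1, Prm2, Prm3, Tnp1 and Tnp2 are the genes of the mouse protamines and transition proteins, the small proteins of sperm chromatin packing and their close neighbour Prm3. They were taken by symbol, 5 of the 55357 genes in the count tables, by a rule that sets no threshold on a measured value, and all 5 were detected in every library. Nuclei from whole testes of 8-week-old male mice were profiled with 10x Genomics 3′ V3 chemistry in 4 libraries, 2 from WT mice and 2 from Dhx37-/- mice, numbered 1 and 2 within a genotype and labelled as biological replicates. The label Dhx37-/- stands for the genotype Dhx37 flox/flox; AMH-Cre. Its Cre is under the control of the Amh promoter, which is active in Sertoli cells, so the RNA helicase gene Dhx37 was targeted there and not in the spermatids that make protamines. Whether WT mice carried a floxed allele or Cre, and how many mice stood behind a library, is not given in the sources used here, and p-values measure the spread between these 4 libraries only.

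Sperm DNA is packed far more tightly than that of somatic cells. In elongating spermatids most histones leave the DNA, the transition proteins TNP1 and TNP2 take their place for a short time, and the arginine-rich protamines PRM1 and PRM2 replace them in turn. The mRNAs are made in round spermatids, where the activator CREM binds CRE-type elements of several of these promoters. They are then held in the cytoplasm by RNA-binding proteins and translated after transcription has stopped. Prm3 lies in the same gene cluster and is known as a gene for an acidic protein of the spermatid cytoplasm, not for a DNA-packing protein.

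All 5 symbols had an entry in the RefSeq promoter table of build GRCm38.p6. The 120 bases before each start are shown because the members differed in when they rose among spermatids (Prm3 apart from the rest), and because the promoter is where the activators of late spermatid genes act. Prm1 (chr16:10796824-10796943), Prm2 (chr16:10792106-10792225), Prm3 (chr16:10790915-10791034) and Tnp2 (chr16:10788656-10788775) lie together on the minus strand of chromosome 16, and Tnp1 (chr1:73015900-73016019) lies on the minus strand of chromosome 1. Each sequence runs 5′ to 3′ along its gene, and capitals mark a match to TGANNTCA, TATAA or TATATA on either strand:
Prm1: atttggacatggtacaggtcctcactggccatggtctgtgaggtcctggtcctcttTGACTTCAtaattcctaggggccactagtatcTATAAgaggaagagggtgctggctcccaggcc
Prm2: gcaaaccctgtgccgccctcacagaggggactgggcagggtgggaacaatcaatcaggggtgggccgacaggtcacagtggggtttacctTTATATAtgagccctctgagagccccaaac
Prm3: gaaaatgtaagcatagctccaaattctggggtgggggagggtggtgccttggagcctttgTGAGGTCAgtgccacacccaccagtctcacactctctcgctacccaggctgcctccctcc
Tnp1: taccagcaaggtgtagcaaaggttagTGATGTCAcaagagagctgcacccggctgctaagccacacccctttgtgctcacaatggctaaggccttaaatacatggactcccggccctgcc
Tnp2: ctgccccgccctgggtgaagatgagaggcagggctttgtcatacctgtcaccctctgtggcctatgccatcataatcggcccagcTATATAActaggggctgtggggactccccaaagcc

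A CRE-type match to TGANNTCA began 64 bases before the start of Prm1, 60 bases before that of Prm3 and 94 bases before that of Tnp1, against a share of 7.14% over the same window of 32851 promoters. The full palindrome TGACGTCA, which TGANNTCA contains, was found in 1.24% of promoters and in no member. TATAA matched Prm1 at 32 bases, Tnp2 at 33 bases and, on the other strand, Prm2 at 30 bases before the start, against 11.8% of all promoters. TATATA overlapped the TATAA match in Tnp2 and Prm2 and was found in 2.51% of promoters. Prm3, the gene whose pattern differed below, held a CRE-type match and neither TATA motif, and Tnp1, which moved with the other three, held the same. A match describes letters of the reference genome, and binding was not measured.

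The libraries held 51797891 to 75611263 UMIs (unique molecular identifiers, each standing for 1 captured transcript) and 8296 to 10043 kept nuclei with medians of 3309 to 4154 UMIs. Classes were set by marker genes, never by the 5 members, and the limits of the gates were chosen after the data had been seen. Of 37017 kept nuclei, 19993 passed no gate. Spermatids were divided into 5 steps named by their marker genes. CPM are counts scaled to a common total, per class and library unless said otherwise. With the nuclei of all libraries pooled, Rad51b/Pdgfc and Foxp2/Cntn3 nuclei carried the round spermatid markers at 2214 and 2001 CPM in sum. In the Kcnb2/Dscaml1, Fmo5/Ppm1l and Ung steps the pooled sum was 327 to 392 CPM. Elongating spermatid markers came to 2409 CPM in Rad51b/Pdgfc and 1932 CPM in Foxp2/Cntn3 nuclei. They came to 2807 CPM in Kcnb2/Dscaml1, 3160 CPM in Fmo5/Ppm1l and 4409 CPM in Ung nuclei. Words such as first and later name the steps in this listed order, and the order of Rad51b/Pdgfc and Foxp2/Cntn3 nuclei was not tested. Of the Ung nuclei, 62.5% stood at the lowest UMI count that the gate allowed, and 51.2% of Fmo5/Ppm1l nuclei passed more than 1 gate. Any pair of libraries shared 19 to 29 barcodes among kept nuclei. Dhx37 itself stood at 7.04 and 11.8 CPM in WT and at 10.4 and 10.6 CPM in Dhx37-/- kept nuclei, a 3′ count over all cell types that does not check a deletion in Sertoli cells.

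Most UMIs of all 5 genes lay outside the kept nuclei. Kept nuclei held 23.8% to 34.9% of each gene's UMIs, although they held 52.1% to 60.7% of all UMIs. Free RNA was measured in the barcodes ranked 45000 to 90000 by UMI count, which had at most 242 to 384 UMIs depending on the library, and these barcodes held 23.6% to 31.3% of each gene's UMIs against 12.5% to 19.5% of all UMIs. The excess outside kept nuclei was present for each gene and each library. Whether some of these barcodes were nuclei with little RNA was not tested.

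The level of Prm1, the gene of the protamine shared by mammals, in kept nuclei was 2309 and 2980 CPM for WT, against 5254 and 3098 CPM for Dhx37-/-. In free RNA it was 4943 and 12143 CPM in WT and 21359 and 13582 CPM in Dhx37-/-. Every library was higher in free RNA than in its own nuclei, and WT replicate 1 was lowest in both.

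In edgeR's quasi-likelihood test with the library as a block, all 5 members were higher in free RNA than in kept nuclei, as were 31.8% of the 26685 genes tested. The log2 fold change was 2.10 ± 0.37 (SE, n = 4 libraries; adjusted p = 0.000168) for Prm1 and 1.89 ± 0.32 (adjusted p = 0.000132) for Prm2. It was 2.04 ± 0.33 (adjusted p = 7.54e-05) for Tnp1 and 2.09 ± 0.31 (adjusted p = 4.09e-05) for Tnp2, the transition protein genes. Prm3 had 2.04 ± 0.24 (adjusted p = 5.95e-06). The median over all genes was -0.15, and scaling by library totals alone moved it to -0.44 and the 5 genes to 1.61 to 1.82. The ratio of free to nuclear CPM was 1.96 to 2.30 in WT replicate 1 and 3.45 to 4.38 in the other 3 libraries.

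**Figure D1:**
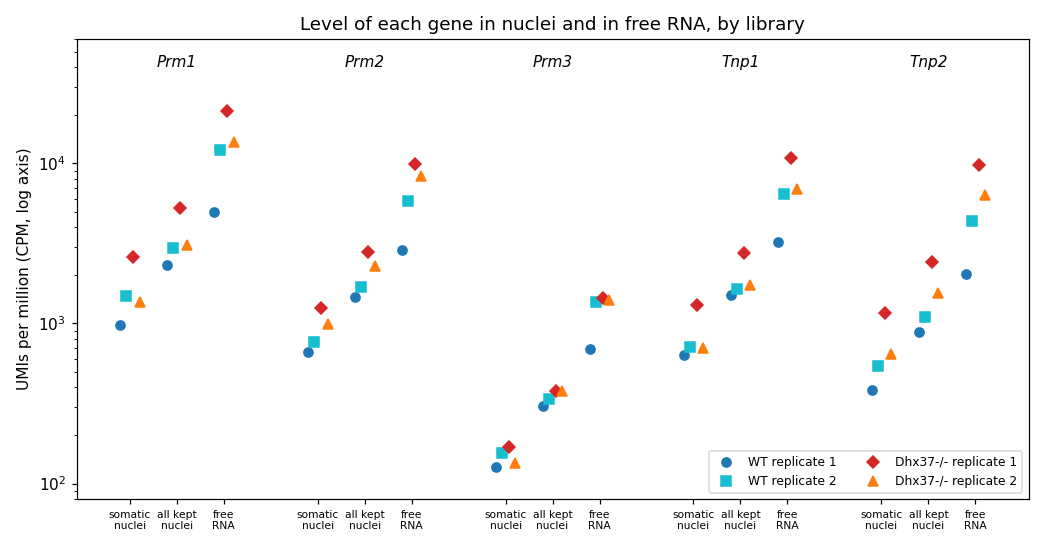
Level of each gene in CPM (log axis) in somatic nuclei, all kept nuclei and free RNA, with 1 point per library. For each gene and library the point for free RNA lies above the point for kept nuclei, for Prm1 at 4943 to 21359 CPM against 2309 to 5254 CPM.

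Nuclei of somatic cells, which do not transcribe protamine genes, carried their UMIs as well. Sertoli, Leydig, macrophage, endothelial, peritubular myoid, fibroblast and T cell nuclei together held 3.89 and 5.40 Prm1 UMIs per nucleus in WT and 12.4 and 8.00 in Dhx37-/-. For Tnp2 the values were 1.51 and 1.96 in WT and 5.55 and 3.76 in Dhx37-/-. For Prm3 they were 0.500 and 0.566 in WT and 0.807 and 0.793 in Dhx37-/-. The order of the libraries followed that of free RNA for Prm1 and Tnp2, with Dhx37-/- replicate 1 highest and WT replicate 1 lowest, and per nucleus the genotypes did not overlap for these 3 genes. Of all 19043 genes tested in somatic nuclei, 53.5% were likewise higher per nucleus in both Dhx37-/- libraries. Scaled to CPM they did overlap for Prm1, at 980 and 1483 CPM in WT and 2599 and 1364 CPM in Dhx37-/-, and for Prm3, at 126 and 155 CPM in WT and 170 and 135 CPM in Dhx37-/-. The somatic nuclei of the Dhx37-/- libraries held more UMIs in all, with medians of 4130 and 5513 against 3262 and 3210 in WT. The somatic sums also mixed classes in unlike numbers. Sertoli nuclei numbered 56 and 18 in WT and 154 and 239 in Dhx37-/-, and macrophage nuclei 177 and 75 in WT and 160 and 141 in Dhx37-/-.

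Within a library the somatic classes differed less in these genes than in their total UMIs. Over the classes with at least 20 nuclei, the highest class held 1.51 and 1.26 times the Prm1 UMIs of the lowest in WT and 1.23 and 1.44 times in Dhx37-/-, while the median UMIs of those classes differed 2.06-fold to 3.72-fold. The spread was wider for Prm3, whose highest class held 1.54 and 1.96 times the lowest in WT and 1.47 and 1.63 times in Dhx37-/-, and it reached 1.62 times for Prm2. Nearly every somatic nucleus had a Prm1 UMI, 93.7% and 97.7% in WT and 100% in both Dhx37-/- libraries, against 96.9% to 99.9% of all kept nuclei. A Prm1 UMI in a nucleus therefore did not mark a spermatid in these libraries, and each level below is read against the somatic level of its own library.

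The first 2 spermatid steps, by round spermatid markers the younger ones, stood near the somatic level for Prm1, Tnp1 and Tnp2. In Rad51b/Pdgfc nuclei Prm1 was 4.20 and 5.31 UMIs per nucleus in WT and 12.3 and 8.39 in Dhx37-/-, which is 1.03 ± 0.0445 times the somatic level (SD, n = 4 libraries) and higher than it in 2 of 4 libraries. Tnp2 was 1.06 ± 0.0852 times the somatic level, higher in 2 of 4 libraries, and Tnp1 was 1.11 ± 0.0618 times, higher in 4 of 4. In Foxp2/Cntn3 nuclei these ratios were 1.08 for Prm1, higher in 4 of 4 libraries, 1.00 for Tnp1, higher in 2 of 4, and 0.957 for Tnp2, higher in 1 of 4. Differences this small from the somatic nuclei, including the 1.02 to 1.15 times for Tnp1 in Rad51b/Pdgfc nuclei, are given as values and not read as expression.

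Prm2 and Prm3 were already above the somatic level in these nuclei. Prm3 was 1.41 and 1.62 UMIs per Rad51b/Pdgfc nucleus in WT and 1.85 and 2.30 in Dhx37-/-, and every library was 2.30 to 2.90 times its somatic level, with a mean of 2.72 ± 0.284 (SD, n = 4). Prm2 was 4.00 and 4.72 in WT and 8.18 and 8.78 in Dhx37-/-, 1.52 ± 0.13 times the somatic level and higher in 4 of 4 libraries. Both genes also stood above the highest somatic class of each library, which for Prm3 held 0.568 and 0.920 UMIs per nucleus in WT and 0.975 and 1.11 in Dhx37-/-. For both genes the exact two-sided sign-flip permutation test over the 4 libraries gave p = 0.125, the smallest it can give. A Prm3 UMI was found in 70.7% to 84.3% of Rad51b/Pdgfc nuclei against 35.0% to 49.5% of somatic nuclei. After thinning each nucleus to 1000 UMIs the shares were 27.9% to 37.7% against 13.1% to 17.04%, with median depths before thinning of 3799 to 4519 UMIs and of 3210 to 5513 UMIs. All 4 libraries were higher in the spermatid step by either measure.

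From the Kcnb2/Dscaml1 step on, the other 4 genes rose and Prm3 hardly moved. Prm1 was 15.7 and 22.8 UMIs per Kcnb2/Dscaml1 nucleus in WT and 32.3 and 30.0 in Dhx37-/-. Tnp1 was 11.1 and 13.3 in WT and 17.9 and 18.1 in Dhx37-/-, and Tnp2 was 6.32 and 9.09 in WT and 16.5 and 16.0 in Dhx37-/-. Prm3 was 1.28 and 1.44 in WT and 1.77 and 2.09 in Dhx37-/-. For Prm1, Tnp1 and Tnp2 each library stood well above its own earlier steps, and for Prm3 each library stood below its Rad51b/Pdgfc value.

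Against the somatic level, the Kcnb2/Dscaml1 step was 3.65 ± 0.723 times as high for Prm1, 3.56 ± 0.541 times for Prm2, 4.19 ± 0.935 times for Tnp1 and 4.01 ± 0.719 times for Tnp2 (SD, n = 4), and 2.48 ± 0.198 times for Prm3. In the Fmo5/Ppm1l step the ratios were 4.78, 4.54, 5.21, 4.78 and 2.78 in the same order. All 4 libraries were above their somatic level in both steps for each gene. The somatic level was still 24.7% and 23.7% of the Prm1 level of Kcnb2/Dscaml1 nuclei in WT and 38.3% and 26.7% in Dhx37-/-. In the Ung step Prm1 reached 22.7 and 29.6 UMIs per nucleus in WT and 43.4 and 36.5 in Dhx37-/-.

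The steps were compared by edgeR's quasi-likelihood test on summed UMI counts, with TMM scaling and the library as a block. Prm1 rose by 2.09 ± 0.085 (log2, SE, edgeR adjusted p = 4.04e-13) from the Rad51b/Pdgfc to the Kcnb2/Dscaml1 step. Prm2 rose by 1.503 ± 0.072, Tnp1 by 2.17 ± 0.087 and Tnp2 by 2.19 ± 0.089, with adjusted p-values of 2.83e-12 or less. These 4 members were called higher, as were 36.2% of the 16489 genes tested, and Prm3 was not called, at 0.16 ± 0.087 (adjusted p = 0.121). The same 4 were higher in the Fmo5/Ppm1l step by 1.78 to 2.41, where 35.5% of genes were called higher, and in the Ung step by 1.81 to 2.56, where 30.6% were. Prm3 was also called in these steps, at 0.25 ± 0.093 (adjusted p = 0.0222) and 0.37 ± 0.14 (adjusted p = 0.0232). Without Dhx37-/- replicate 2 the first of these calls had an adjusted p of 0.105 in edgeR. The call in the Ung step was lost without WT replicate 2, at 0.36 (edgeR, adjusted p = 0.061), and without Dhx37-/- replicate 2, at 0.40 (0.066). Both values stayed near 0.37. Without Dhx37-/- replicate 1 the call was lost at a smaller 0.22 (edgeR, adjusted p = 0.369).

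Between the first 2 steps the differences were small. In Foxp2/Cntn3 against Rad51b/Pdgfc nuclei Tnp1 was lower by 0.25, Tnp2 by 0.24 and Prm3 by 0.20 on the log2 scale. The adjusted p-values in edgeR's test were 3.86e-05, 0.000138 and 0.00292, and 30.0% of 16194 genes were called lower. Of 18 other late spermatid mRNAs, listed below, 17 were called lower and 1 higher in Foxp2/Cntn3 nuclei. Which of these 2 steps is the younger was not tested. Prm1, at -0.020 (adjusted p = 0.679), and Prm2, at -0.071 (adjusted p = 0.167), were not called, although Prm2 was called at -0.11 without WT replicate 1 and, at the same value, with DESeq2 size factors in edgeR. Tnp1 was 1.11 times the somatic level in Rad51b/Pdgfc and 1.00 times in Foxp2/Cntn3 nuclei, and Tnp2 was 1.06 and 0.957 times.

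**Figure D2:**
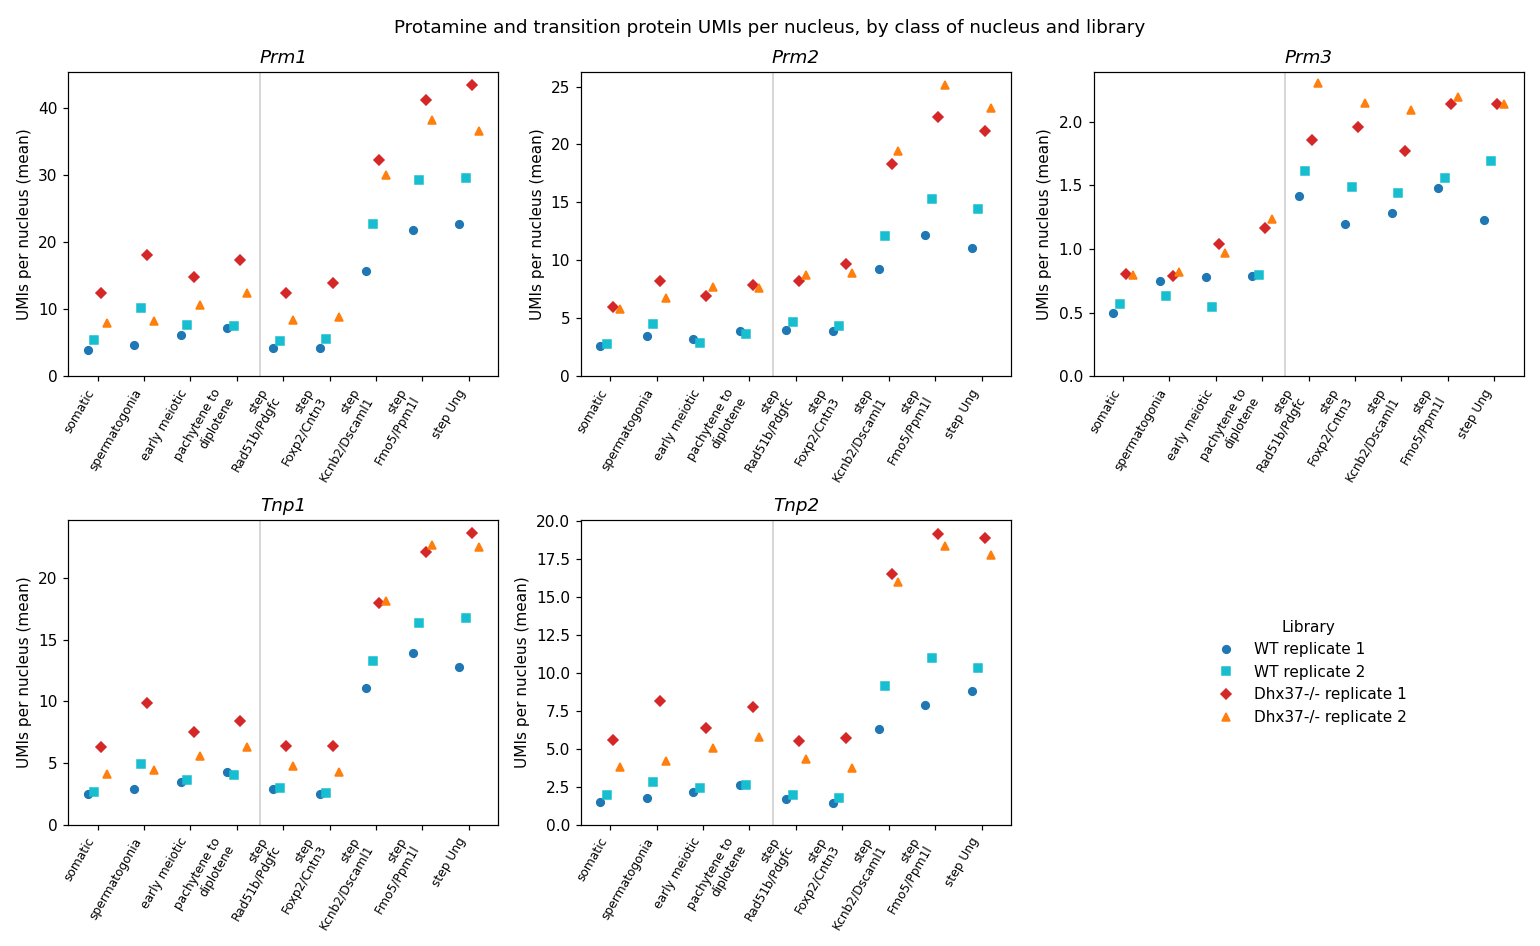
Mean UMIs per nucleus of each gene in somatic nuclei, 3 earlier germ cell classes and 5 spermatid steps, with 1 point per library and a separate axis from 0 for each gene. Prm1, Tnp1 and Tnp2 lie near the somatic points in the Rad51b/Pdgfc and Foxp2/Cntn3 steps and rise from the Kcnb2/Dscaml1 step, while Prm3 is at 1.41 to 2.30 in the Rad51b/Pdgfc step and at 1.28 to 2.09 in the Kcnb2/Dscaml1 step.

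Pachytene to diplotene nuclei carried more UMIs of each gene than somatic nuclei in 4 of 4 libraries, and early meiotic nuclei did so except for Prm3 in WT replicate 2, at 0.960 times. In pachytene to diplotene nuclei the mean ratio lay between 1.36 (Prm2) and 1.55 (Prm1), and in early meiotic nuclei between 1.19 (Prm2) and 1.38 (Prm1). Of the pachytene to diplotene nuclei, 12.6% passed more than 1 gate. In spermatogonia, with 27 to 114 nuclei per library, the mean ratio lay between 1.15 (Prm3, higher in 3 of 4 libraries) and 1.42 (Tnp1), with single libraries from 0.974 to 1.89. The 1.52 times of Prm2 in Rad51b/Pdgfc nuclei was thus close to what these other germ cell classes carried, and the 2.30 to 2.90 times of Prm3 lay above each of their Prm3 values. What part of this excess came from nuclei that also passed a spermatid gate was not tested.

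The share of Prm3 among the UMIs of the 5 genes shows the same order of steps within each library. In Rad51b/Pdgfc nuclei it was 9.96% and 9.79% for WT, against 5.41% and 8.08% for Dhx37-/-. In Kcnb2/Dscaml1 nuclei it was 2.94% and 2.45% in WT and 2.04% and 2.44% in Dhx37-/-. Somatic nuclei lay between them at 4.52% and 4.24% in WT and 2.61% and 3.53% in Dhx37-/-, close to free RNA at 5.03% and 4.51% in WT and 2.73% and 3.82% in Dhx37-/-. In every library the share was highest in the first step, intermediate in free RNA and lowest in the later step.

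The ratio of Prm1 to Prm2 UMIs was lower in the first step than in the later one. In Rad51b/Pdgfc nuclei there were 1.05 and 1.12 Prm1 UMIs per Prm2 UMI in WT and 1.51 and 0.956 in Dhx37-/-. In Kcnb2/Dscaml1 nuclei there were 1.71 and 1.88 in WT and 1.76 and 1.54 in Dhx37-/-. Each library had the higher ratio in the later step, and the genotypes overlapped in both steps. Somatic nuclei had 1.48 and 1.93 in WT and 2.07 and 1.38 in Dhx37-/-, above the later step in WT replicate 2 and Dhx37-/- replicate 1 and above the first step in every library. Since Prm1 stood near the somatic level in the first step, its ratio there is a description of the UMIs and not read as a proportion of the spermatids' own transcripts. UMIs of 3′ reads are not scaled by length, and such a ratio is compared between nuclei or libraries only, not as which gene is the more abundant.

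The proportion of Tnp1 to Tnp2 UMIs was higher in both WT libraries than in either Dhx37-/- library. In all kept nuclei there were 1.71 and 1.51 Tnp1 UMIs per Tnp2 UMI in WT, against 1.13 and 1.12 in Dhx37-/-. The genotypes did not overlap, with means of 1.61 ± 0.143 and 1.13 ± 0.00845 (SD, n = 2 each) and 1.42 times the ratio in WT. With 2 against 2 libraries the exact two-sided permutation test gave p = 0.333, the smallest it can give.

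The same split appeared in every class in which each library had at least 20 nuclei, 11 of 11, with 1.22 to 1.76 in WT and 1.04 to 1.27 in Dhx37-/-. Free RNA gave 1.58 and 1.48 in WT and 1.11 and 1.10 in Dhx37-/-. These classes share their free RNA, so they are not 11 separate measurements. In Kcnb2/Dscaml1 nuclei, where both genes stood above the somatic level, the ratio was 1.75 and 1.46 in WT and 1.09 and 1.13 in Dhx37-/-. The split was not particular to this ratio. Among the UMIs of the 5 genes, the share of Tnp2 was apart in 11 of 11 classes, that of Prm3 in 8 and that of Tnp1 in 6, and the UMIs of the 5 genes per nucleus were apart in 11 and their CPM in 10. The ratio of Prm1 to Prm2 was apart in 0 of 11. Being apart was common among all genes. Both Dhx37-/- libraries were higher for 53.5% of 19043 genes per somatic nucleus and for 33.8% of 30033 genes in CPM of kept nuclei. The share of all genes was not counted for each class.

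**Figure D3:**
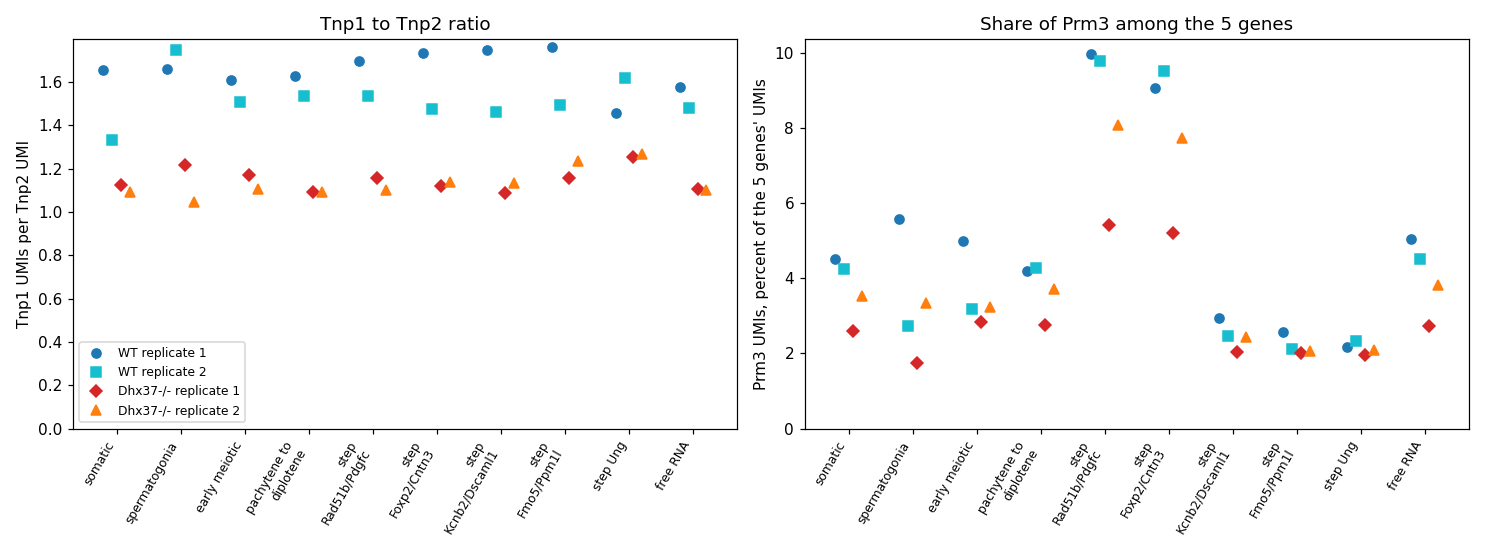
Left, Tnp1 UMIs per Tnp2 UMI, and right, Prm3 UMIs as a percentage of the UMIs of the 5 genes, in each class of nucleus and in free RNA, with 1 point per library and both axes from 0. The WT points lie at 1.48 and 1.58 and the Dhx37-/- points at 1.10 and 1.11 for Tnp1 to Tnp2 in free RNA, and the share of Prm3 is highest in the first 2 spermatid steps.

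In kept nuclei both Dhx37-/- libraries stood above both WT libraries for all 5 genes, as they did for 33.8% of the 30033 genes tested, and no difference passed the test. Tnp2 was 884 and 1098 CPM in WT and 2431 and 1545 CPM in Dhx37-/-, and Tnp1 was 1510 and 1653 CPM in WT and 2758 and 1735 CPM in Dhx37-/-. Prm2 was 1465 and 1683 CPM in WT and 2790 and 2285 CPM in Dhx37-/-, and Prm3 was 304 and 338 CPM in WT and 377 and 381 CPM in Dhx37-/-. The genotypes did not overlap for any of these genes or for Prm1, given above, and Dhx37-/- replicate 1 was the highest library for each gene but Prm3. In a sum over nuclei, fewer cells of a type and less RNA per cell cannot be told apart. The mix of steps also differed between libraries. Rad51b/Pdgfc nuclei numbered 990 and 690 in WT and 321 and 942 in Dhx37-/-. Ung nuclei numbered 40 and 155 in WT and 302 and 132 in Dhx37-/-.

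edgeR's quasi-likelihood test of the genotypes, on 2 WT and 2 Dhx37-/- libraries, called 0 of the 5 members in kept nuclei, where it called 0% of the 30033 genes tested, 4444 of which had an unadjusted p under 0.05, and DESeq2 called 277 genes. The log2 fold change was 0.91 ± 0.26 for Tnp2 (SE; adjusted p = 0.304), 0.60 ± 0.22 for Prm2 (0.315), 0.56 ± 0.29 for Prm1 (0.376), 0.41 ± 0.26 for Tnp1 (0.446) and 0.15 ± 0.20 for Prm3 (0.721). Members called were likewise 0 in free RNA, in somatic nuclei and in each of the 5 steps. There edgeR called 0% of genes, except in the Rad51b/Pdgfc step, where it called 1 of 16126 genes (0.00620%). All 40 fold changes were above 0, and Tnp2 had the highest and Prm3 the lowest of the 5 in all 8 comparisons. These comparisons share libraries and free RNA, so their agreement in sign is not independent. Of the 40, 17 had an unadjusted p under 0.05 in edgeR. That share over all genes ran from 6.74% in Rad51b/Pdgfc nuclei to 18.4% in free RNA. DESeq2 called Tnp2 in the Rad51b/Pdgfc step, with 10 of 16126 genes, and in the Foxp2/Cntn3 step, with 14 of 16360 genes. It called no other member in any comparison.

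The size of the difference varied between comparisons. In free RNA Tnp2 was 2032 and 4380 CPM for WT, against 9737 and 6304 CPM for Dhx37-/-, which edgeR fitted as 1.44 ± 0.89 on the log2 scale (adjusted p = 0.393), and which fell to 0.98 without WT replicate 1. It was 1.19 ± 0.21 (adjusted p = 0.73) in Rad51b/Pdgfc nuclei and 1.31 ± 0.24 (adjusted p = 0.617) in Foxp2/Cntn3 nuclei, the steps in which Tnp2 stood near its somatic level. It was 0.83 ± 0.21 (adjusted p = 0.541) in Kcnb2/Dscaml1, 0.75 ± 0.21 (0.568) in Fmo5/Ppm1l, 0.68 ± 0.20 (0.565) in Ung and 0.98 ± 0.37 (0.28) in somatic nuclei. The genotype difference in a step thus came with a difference of the same direction in the somatic nuclei and free RNA of the same libraries. Its part in the step values was not tested in the model across genes.

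Subtracting each library's somatic level from its Kcnb2/Dscaml1 level gives the excess of the spermatids over other nuclei. For Tnp2 the excess was 5.97 ± 1.64 UMIs per nucleus in WT and 11.6 ± 0.903 in Dhx37-/- (SD, n = 2 each). For Prm1 it was 14.6 ± 3.9 and 20.9 ± 1.49, for Prm2 7.94 ± 1.92 and 12.98 ± 0.954, for Tnp1 9.61 ± 1.49 and 12.8 ± 1.62, and for Prm3 0.828 ± 0.065 and 1.13 ± 0.237. The exact two-sided permutation test gave p = 0.333 for each gene, the smallest it can give with these libraries. The excess was higher in both Dhx37-/- libraries for each of the 5 genes and for 18.4% of the 15905 genes tested in this step. It is in UMIs per nucleus, and Kcnb2/Dscaml1 nuclei were also deeper in Dhx37-/-, with medians of 4008 and 4096 UMIs against 3294 and 3652 in WT.

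In somatic nuclei the 5 genes together came to 11.1 and 13.3 UMIs per nucleus in WT and to 30.9 and 22.5 in Dhx37-/-. The means were 12.2 ± 1.62 and 26.7 ± 6.0 (SD, n = 2 each), a ratio of 2.19 (exact two-sided permutation p = 0.333). Set against 18 other late spermatid mRNAs in the same nuclei, the 5 genes had 1.55 and 1.64 UMIs per UMI of those genes in WT and 2.42 and 1.75 in Dhx37-/-. In CPM the 5 genes came to 2784 and 3664 in WT and to 6505 and 3828 in Dhx37-/-. Both Dhx37-/- libraries were higher by each of the 3 measures, Dhx37-/- replicate 1 by more. In CPM of this sum Dhx37-/- replicate 2 lay close to WT replicate 2. In Leydig nuclei alone the 5 genes came to 2389 and 2499 CPM in WT and 5243 and 3578 in Dhx37-/-. In macrophage nuclei they came to 4150 and 5229 CPM in WT and 9471 and 6342 in Dhx37-/-. In Sertoli nuclei Dhx37-/- replicate 2 lay at 2694 CPM, below the 2818 CPM of WT replicate 2, which had 18 such nuclei.

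The genotype calls depended on the WT libraries. Without WT replicate 2, edgeR called all 5 members in free RNA, with log2 fold changes of 1.21 to 2.16 and adjusted p-values of 0.000151 to 0.0099, in a fit that called 7515 of 23933 genes. Without WT replicate 1 it called none of them there, with fold changes of 0.16 to 0.98, and 1709 of 22863 genes. In kept nuclei it called Tnp2 without WT replicate 1 (0.80, adjusted p = 0.0291), with 5919 of 31557 genes, and without WT replicate 2 (0.99, adjusted p = 0.0259), with 1695 of 31121 genes. Leaving out either WT library also gave 4 or 5 called members in the Rad51b/Pdgfc, Foxp2/Cntn3, Kcnb2/Dscaml1 and Fmo5/Ppm1l steps, in fits that called 1108 to 3008 of 12214 to 18053 genes, where Prm3 was the member not called except in Foxp2/Cntn3 nuclei without WT replicate 2. Such fits take their spread from the Dhx37-/- pair and assume it for the single WT library left. Leaving out either Dhx37-/- library gave no called member. For Prm1 in free RNA WT replicate 1 stood at 4943 CPM, below the 12143 to 21359 CPM of the other 3 libraries.

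**Figure D4:**
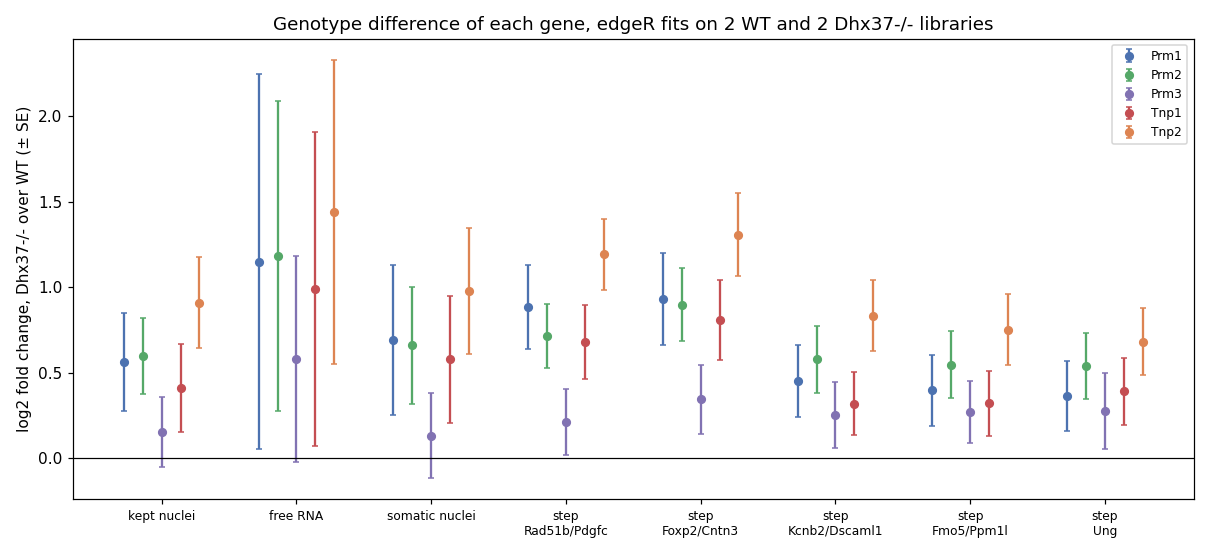
Log2 fold change of each gene, Dhx37-/- over WT, with SE bars, in the 8 edgeR comparisons. All 40 points lie above 0, from 0.13 (Prm3, somatic nuclei) to 1.44 (Tnp2, free RNA), Tnp2 is the highest and Prm3 the lowest point in each comparison, and no point passed the test.

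Whether the rise along the steps differed between genotypes was tested with an interaction term. In the Kcnb2/Dscaml1 step the rise of Prm1 was smaller by 0.29 ± 0.13 on the log2 scale in Dhx37-/- than in WT (edgeR, adjusted p = 0.913). There the terms of Tnp1, Tnp2 and Prm2 were -0.24 ± 0.14, -0.23 ± 0.15 and -0.024 ± 0.12. In the Fmo5/Ppm1l step the rise was smaller by 0.52 ± 0.13 for Prm1 (unadjusted p = 0.00166 from edgeR over all genes, adjusted p = 0.998), by 0.41 ± 0.15 for Tnp1 and by 0.49 ± 0.15 for Tnp2. In the same step Prm2 stood at -0.23 ± 0.11 and Prm3 at -0.0046 ± 0.16. The opposite sign was seen for Prm3 in the Kcnb2/Dscaml1 step, at 0.15 ± 0.16. In the Ung step it was seen for Prm3, at 0.27 ± 0.28, and for Prm2, at 0.027 ± 0.26. There Prm1 stood at -0.31 ± 0.26, Tnp1 at -0.076 ± 0.26 and Tnp2 at -0.31 ± 0.26. No member passed the threshold in any of the 3 interaction tests, in which edgeR called 1 or 2 genes each. These log2 rises start from the Rad51b/Pdgfc step, where Prm1, Tnp1 and Tnp2 stood near the somatic level. In UMIs per nucleus, the excess of Fmo5/Ppm1l over somatic nuclei was higher in both Dhx37-/- libraries for each member. The share of all genes with such a split was 18.4% in the Kcnb2/Dscaml1 step and was not counted for the Fmo5/Ppm1l step. For Prm1 it was 17.9 and 23.9 in WT and 28.8 and 30.3 in Dhx37-/-. For Tnp2 it was 6.39 and 8.99 in WT and 13.6 and 14.6 in Dhx37-/-.

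Genes that act on protamine and transition protein mRNAs were followed as 4 lists, whose choice is described with the processing. Of 10 regulators of transcription, edgeR called 4 higher and 3 lower in Kcnb2/Dscaml1 than in Rad51b/Pdgfc nuclei, near the 36.2% higher and 35.0% lower of all genes, with a median log2 fold change of -0.029 against 0.023 over all genes. Crem, the activator named above, rose by 0.78 ± 0.080 (adjusted p = 8.15e-08), and Ep300, a histone acetyltransferase, rose by 2.04 ± 0.11. Fhl5, the partner of CREM in spermatids, rose by 0.26 ± 0.093, and Kdm3a, a histone demethylase needed for Prm1 and Tnp1 transcription, stood at -0.048 (adjusted p = 0.72). The others called, named after their values were seen, were Rfx2 among the higher genes and Taf7l, Brdt and Tbpl1 among the lower ones.

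Of 9 regulators of translation or storage, 2 were called higher (Paip2 and Tarbp2) and 2 lower (Pabpc1 and Khdrbs1) between these steps, both below the shares of all genes, and the median was 0.086. Paip2, an inhibitor of poly(A)-binding protein, rose by 1.04 ± 0.087 (edgeR, adjusted p = 4.78e-09) and Pabpc1, the poly(A)-binding protein itself, fell by 0.24. Ybx2 and Ybx3, the Y-box proteins that hold protamine mRNAs, stood at -0.023 and 0.086 (adjusted p = 0.856 and 0.396). In free RNA over kept nuclei Ybx2 and Ybx3 rose by 1.97 ± 0.19 and 1.83 ± 0.22, near the values of the 5 members.

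Of 10 tested genes of elongating spermatid chromatin, out of 12, edgeR called 5 higher and 2 lower in the Kcnb2/Dscaml1 step, with a median of 0.56. Camk4, a kinase known to phosphorylate PRM2, rose by 0.75 ± 0.099 (adjusted p = 1.76e-06), while Psme4, the proteasome activator that removes histones, fell by 2.00 and H3f3b, a gene of the histone variant H3.3, fell by 0.30. Chd5, a remodeler needed for the exchange, stood at 0.19 (adjusted p = 0.0551). Of 18 other late spermatid mRNAs, 14 were called higher and 1 lower (Txndc8), with a median of 0.49. Odf2, an outer dense fibre gene, rose by 0.86 ± 0.084, Gsg1 by 0.67 ± 0.082, Dbil5 by 0.36 ± 0.085 and Ldhc, the testis lactate dehydrogenase, by 0.19 ± 0.076 (edgeR, adjusted p = 0.0298 for Ldhc). The rises of Prm1, Prm2, Tnp1 and Tnp2, at 1.503 to 2.19, were above the median of each list.

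In free RNA over kept nuclei, edgeR called 17 of the 18 late mRNAs higher and none lower, 9 of 12 chromatin genes higher and 1 lower, 7 of 9 translation genes higher and none lower, and 4 of 10 transcription genes higher and 1 lower. Of all genes 31.8% were higher and 37.4% lower. The medians of the lists were 1.61, 1.78, 1.44 and 0.30, against -0.15 over all genes. The genes that were lower in free RNA were Camk4, at -1.61, and Ep300, at -0.87, and both were higher in later steps. The 5 members, at 1.89 to 2.10, lay above the medians of all 4 lists. Between genotypes edgeR called none of the list genes in any of the 8 comparisons, which share libraries. Over these comparisons the median log2 fold change of the late mRNAs ran from 0.20 in kept nuclei to 0.58 in free RNA and that of the chromatin genes from 0.086 in free RNA to 0.45 in Foxp2/Cntn3 nuclei. The translation genes had medians of 0.041 to 0.29 and the transcription genes of -0.11 to 0.19, against -0.044 to 0.016 over all genes.

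Genes were ranked by their likeness to the pattern of the 4 members that rose together. Over 55 sums of a class in a library, the mean profile of Prm1, Prm2, Tnp1 and Tnp2 in log2(CPM + 10) was closest to Tfam (Pearson r = 0.951), Cdc34 (0.943), H2al2a (0.939), Map1lc3a (0.936) and Defb33 (0.935), out of 9599 genes that reached 100 CPM. Prm3 had r = 0.773 and rank 532. These sums share libraries and free RNA, so r is a description. Tfam encodes the packing protein of mitochondrial DNA, Cdc34 a ubiquitin-conjugating enzyme, H2al2a a histone variant that opens nucleosomes for transition proteins, Map1lc3a an autophagosome protein and Defb33 a beta-defensin. The gene nearest in function, H2al2a, rose by 1.54 between the 2 steps compared above (edgeR, adjusted p = 4.47e-10).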

How the data were processed

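Nuclei from whole testes were profiled in 4 libraries. The authors deposited raw UMI counts per gene and barcode, unfiltered and not normalized, from Cell Ranger, whose version the file header gives as 7.2.0. The submitters' processing notes name GRCm38 and mm10 while the methods name mm39, and no coordinate of the files was used. Barcodes above a UMI threshold set per library were called as nuclei. Barcodes below it were called if their gene profile differed from free RNA of ranks 45000 to 90000. That was a simulation test (10000 simulations, adjusted p under 0.01). Called barcodes passed on if they held 500 to 5000 genes, no fewer than 500 UMIs and a mitochondrial share of up to 25%. An alternative used this filter alone, without the call. Doublets (4.22% to 4.52% by Scrublet in scanpy 1.11.5) were kept in. Classes were gated on marker genes, with limits set after the data were seen. UMIs were summed per library and class and tested with edgeR 4.0.16 in R 4.3.3 (TMM, filterByExpr, quasi-likelihood F-test, Benjamini-Hochberg adjustment over all genes, threshold 0.05). Genotypes were compared without a block, and free RNA and steps with the library as a block. Alternatives were DESeq2 1.42.0, scaling by library totals, no filter, a stricter gate, other limits of nuclei and free RNA, a replicate block and leaving out each library. Intervals and SDs cover these libraries only. The members, lists and tests were chosen with earlier results of these data known. Named list genes were the 4 per list with the highest mean CPM in kept nuclei, beside others said to be named after their values were seen, and the genes of like pattern were the 5 with the highest r. Scripts were tested on simulated data.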

Additional observations from a re-analysis of the deposited data

How the results depend on the processing

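All 500 genotype values of the 5 genes under the alternatives stayed above 0. In kept nuclei their size (log2) ran from 0.18 to 0.88 for Prm1, from 0.082 to 0.69 for Tnp1 and from 0.59 to 1.19 for Tnp2. It ran from 0.49 to 0.72 for Prm2 and from 0.10 to 0.24 for Prm3. The ratio of free RNA to kept nuclei was past the threshold for each gene under all 11 of its alternatives (log2 1.61 to 2.43). Members called between genotypes, 0 in edgeR with its filter, became 2, 3, 1 and 1 in the Rad51b/Pdgfc, Foxp2/Cntn3, Kcnb2/Dscaml1 and Fmo5/Ppm1l steps with no filter. Those fits called 38 of 34466, 53 of 34717, 56 of 34014 and 42 of 29841 genes. With DESeq2 1 member was called in each of the first 2 of these steps, with 10 of 16126 and 14 of 16360 genes. Leaving out 1 library gave 0 to 1 called members in kept nuclei, 0 to 5 in free RNA, 0 to 4, 0 to 5, 0 to 4, 0 to 4 and 0 to 2 in the steps in the order given with Ung last, and 0 in somatic nuclei. Genes called by genotype, 0 or 1 in edgeR, were 277 in kept nuclei, 350 in free RNA, 75 in somatic nuclei and 0 to 14 in the steps with DESeq2, and 5 to 1031 with no filter. The cause was not tested. With the replicate number as a block, 0 members were called in each comparison, and genes called were 6 in kept nuclei, 32 in free RNA and 237 in somatic nuclei. Deviations from the genotype mean had r = -0.188 between same-numbered libraries. With 2 libraries per genotype the crossed value is the same r with its sign turned, so r cannot show whether the numbers paired the samples. With crossed numbers, chosen after seeing the data, the block called 1 member in kept nuclei (810 of 30033 genes), 1 in each of the first 2 steps (40 of 16126 and 50 of 16360 genes) and 3 in somatic nuclei (718 of 19043 genes).

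In Foxp2/Cntn3 against Rad51b/Pdgfc nuclei, Prm1 turned to 0.036 with library totals and to 0.060 with no filter. Prm2 turned to 0.0092 with no filter, under which Prm3 lost its call (-0.12). With DESeq2 size factors in edgeR Prm2 was called there (-0.11). Prm3 in the Ung step lost its call with no filter (0.12) and with DESeq2 (0.31). The ratio of Tnp1 to Tnp2 in WT over that in Dhx37-/- ran from 1.33 to 1.51 without 1 library, and the 5 genes per somatic nucleus from 1.84 to 2.54 times. Prm3 in Rad51b/Pdgfc over somatic nuclei was lowest without Dhx37-/- replicate 2, at 2.66 times. The Ung step had under 20 nuclei in a library with the stricter gate and gave no value. With 2 libraries per genotype, no exact permutation test of a single value could go below p = 0.333.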
